A study of Mus musculus with 144 samples.

Results

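Gap junctions of astroglia are built from 3 connexins, and their genes are described here across active and quiescent neural stem cells and across age. Gja1 (ENSMUSG00000050953) encodes Cx43, Gjb6 (ENSMUSG00000040055) encodes Cx30 and Gjb2 (ENSMUSG00000046352) encodes Cx26. They are 3 of the 37621 rows of the gene table, found by their Ensembl identifiers. The members were chosen by their single-cell levels, Gja1 for the contrast of quiescent with active cells and Gjb6 for the contrast of quiescent cells of different ages. Those contrasts are therefore described without a p-value for the members, and the bulk pools, which did not enter the choice, carry the tests.

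Connexins assemble as hexamers into hemichannels, and hemichannels of neighbouring cells dock to form a gap junction channel that passes ions and small molecules. Astrocytes use these channels to share potassium, calcium signals and metabolites, and Cx43 is their main connexin, with Cx30 appearing later in postnatal life. Cx26 is found mainly in the leptomeninges of the brain and has been described in some astrocytes. Radial glia and the astrocyte-like stem cells of the adult subventricular zone also express Cx43, which takes part in adhesion between cells and in their communication.

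The cells were sorted by flow cytometry from the mouse subventricular zone for expression of Tlx, the nuclear receptor encoded by Nr2e1. That selection is shared by every group, and the labels give no strain, sex or animal and no account of how Tlx was read out. Single cells carried a stage label, aNSC (active) or qNSC (quiescent). How that label was assigned is not known here. The 5-week mice gave 32 aNSC and 16 qNSC, the 7-week mice 16 and 23, and the 7-month mice 10 and 19. One of these 5-week qNSC is the mean of a near-identical pair of libraries. There were also 13 bulk libraries, pools of 500 cells, with 9 pools from 5-week, 2 from 7-week and 2 from 7-month mice, and 14 single-cell libraries labelled as filtered out. Library titles name 9 sets, 3 per age in labelled cells. In labelled cells and pools, series A1 was used for 7 months, A2 for 7 weeks and A3 for 5 weeks. Age therefore cannot be told apart from title series in the groups compared. The 14 filtered-out libraries are all labelled 5-week, but 7 of them carry A1 titles, and they entered no comparison. No library of 7 months held a Y-linked transcript at 1 TPM (29 labelled cells and 2 pools), against 16 of 48 labelled cells at 5 weeks, 14 of 39 at 7 weeks and all 11 younger pools, so age at 7 months cannot be told apart from the sex of the mice either.

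Values are TPM, transcript abundances scaled to transcript length, whose deposited columns summed to between 710525 and 1000000, and they can be set side by side between genes. Read depth is not known. As a stand-in, a median of 2189, 1966 and 3015 genes reached 1 TPM in qNSC in order of age, 2764, 2631.5 and 2932.5 in aNSC, and 13873 in bulk. Marker lists followed the stage labels on average. The mean log2(TPM + 1) over 24 astroglial markers was 6.32 in qNSC and 2.22 in aNSC, and over 12 cell cycle genes 0.98 and 3.87. However, 10 of the 58 qNSC (4 of 5 weeks, 3 of 7 weeks and 3 of 7 months) had an astroglial mean under 3, and 2 cells labelled 7-month aNSC had an oligodendrocyte marker mean of 10.3, where the next highest cell had 2.45. The age comparisons that include these cells are also given without them.

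The promoters of the members are shown because Gjb2 and Gjb6 are neighbours on chromosome 14 and yet were found in very different numbers of cells. They are the 250 bases before the start of each gene in RefSeq on GRCm38.p6, with capitals marking matches to the motifs searched on both strands. The site bound by the Tlx receptor was searched as AAGTCA. The site of the AP-1 factors, Fos and Jun, was searched as TGANTCA, where N is any base. The GC box that recruits Sp1 was searched as GGGCGG. The TATA box, which positions the polymerase, was searched as TATAAA.
Gja1, chr10:56377050-56377299, plus strand: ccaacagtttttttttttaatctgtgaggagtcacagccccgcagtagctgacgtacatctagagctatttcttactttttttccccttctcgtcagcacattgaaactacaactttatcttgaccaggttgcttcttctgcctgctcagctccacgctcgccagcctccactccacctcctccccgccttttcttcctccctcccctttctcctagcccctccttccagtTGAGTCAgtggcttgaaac
Gjb6, chr14:57133612-57133861, minus strand: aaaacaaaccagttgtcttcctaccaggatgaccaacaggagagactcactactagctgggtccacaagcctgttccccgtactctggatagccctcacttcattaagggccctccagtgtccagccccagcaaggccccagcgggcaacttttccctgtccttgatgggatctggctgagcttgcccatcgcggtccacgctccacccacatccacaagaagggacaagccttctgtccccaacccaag
Gjb2, chr14:57104703-57104952, minus strand: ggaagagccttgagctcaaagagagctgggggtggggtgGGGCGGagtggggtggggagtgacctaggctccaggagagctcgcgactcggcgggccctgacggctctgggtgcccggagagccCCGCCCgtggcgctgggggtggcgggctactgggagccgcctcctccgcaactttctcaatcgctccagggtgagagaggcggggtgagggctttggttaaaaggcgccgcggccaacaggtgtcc

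The Gja1 window held 1 AP-1 match, TGAGTCA, 19 bases before the start. Of 32851 mouse promoters of this length, 6.75% held that motif. The Gjb2 window held GC boxes at 211 and 126 bases before the start, the nearer one on the other strand, and 32.7% of promoters held at least 1. These letters were not found in the Gjb6 window, and the Tlx site (13.1% of promoters) and the TATA box (12.4%) were in none of the 3. GC content was 69.2% for Gjb2, 56.8% for Gjb6 and 50% for Gja1, beside a median of 52.4% over all promoters. Both genes on chromosome 14 are on the minus strand, and the long non-coding RNA gene Gm32912 is the only RefSeq gene between them. Its RefSeq model overlaps that of Gjb2 by 38 bases, and the libraries did not mark strand, so reads from those bases cannot be assigned to one of the pair.

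Gja1, which encodes the main astrocyte connexin, was the most abundant of the 3 in both stages. In qNSC it ran from 0.3 to 9872 TPM with a median of 2706, and in aNSC from 0 to 1420 TPM with a median of 1.24. It reached 1 TPM in 54 of 58 qNSC (93.1%, exact binomial 95% interval 83.3 to 98.1) and in 31 of 58 aNSC (53.4%, 39.9 to 66.7). These intervals, here and below, cover counting error only. The stages parted more clearly at 100 TPM, which 48 qNSC and 7 aNSC reached. That level was chosen after the data were seen, so counts at 100 TPM, here and below, are descriptions. The fitted difference of qNSC from aNSC was 7.04 on the log2(TPM + 1) scale (SE 0.58, moderated by limma, as in all fits here). In 9 of 9 title sets qNSC were higher, by 4.98 to 9.34. Over all 4214 genes fitted, the median of this difference was -0.71. Of those genes, 3.82% were higher in qNSC at an adjusted p under 0.05 and 19.8% were lower. Nothing is read from this background for Gja1, which was chosen for the contrast.

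The quiescent cells with little Gja1 were the ones with few astroglial markers. All 10 qNSC with an astroglial mean under 3 had at most 30.4 TPM of Gja1, and the other 48 were all at 100 TPM or more. The 10 cells had neuroblast marker means from 0.21 to 8.38, where the other 48 reached at most 2.73. Without the 10 cells the stage difference of Gja1 was 8.80. Whether their labels or their content account for their Gja1 was not tested.

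**Figure D1:**
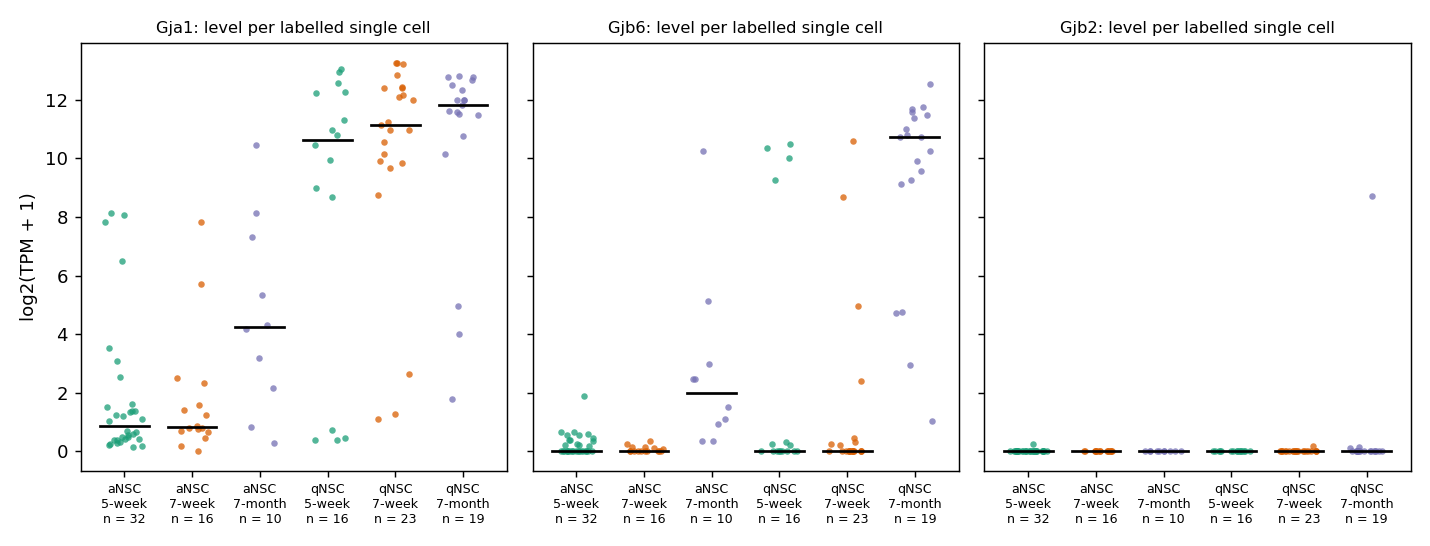
Level of Gja1, Gjb6 and Gjb2 in each labelled single cell, as log2(TPM + 1), by stage and age. Points are cells, black lines are group medians, and n counts cells. Gja1 is high in most qNSC of every age, Gjb6 is high in most qNSC of 7 months and few others, and Gjb2 is high in 1 cell.

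By age, the medians of Gja1 in qNSC were 1607 TPM at 5 weeks (range 0.3 to 8421), 2265 TPM at 7 weeks (1.15 to 9872) and 3614 TPM at 7 months (2.47 to 7139). It reached 1 TPM in 12 of 16, 23 of 23 and 19 of 19 cells. Averaged per title set, the level was 8.77 ± 1.39 (SD, n = 3 sets) in 5-week qNSC, 10.16 ± 0.59 in 7-week qNSC and 10.59 ± 0.42 in 7-month qNSC, on the log2(TPM + 1) scale. The 7-month sets all lay above the 5-week sets, by 1.82 on average, while 7 weeks overlapped both. Without the qNSC with few astroglial markers the difference was 0.74 (pooled SD of the set means 0.91). The 5-week set A3_3 then lay above the 7-month sets, so the order of the sets did not hold. Among all genes compared in qNSC sets with no cell left out, 11% lay higher in every 7-month set than in every 5-week set.

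Gja1 in aNSC had medians of 0.83 TPM at 5 weeks (0.1 to 281), 0.78 TPM at 7 weeks (0 to 226) and 18.04 TPM at 7 months (0.23 to 1420). The set means were 1.96 ± 1.09, 1.62 ± 0.74 and 4.71 ± 0.46 (SD, n = 3 sets each). The 7-month sets lay above all sets of either younger age, and the younger ages overlapped. Without the 2 cells rich in oligodendrocyte markers the 7-month mean was 5.10 ± 0.32. In aNSC sets, 5.13% of genes were higher in this way against 5 weeks and 5.15% against 7 weeks.

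Gjb6, which encodes the partner connexin of mature astrocytes, was near 0 in most young cells and high in most old quiescent ones. In qNSC its median was 0 TPM at 5 weeks (0 to 1452), 0 TPM at 7 weeks (0 to 1545) and 1686 TPM at 7 months (1.04 to 6007). It reached 1 TPM in 4 of 16 of the 5-week cells (25%, exact binomial 95% interval 7.27 to 52.4), in 4 of 23 of the 7-week cells (17.4%, 4.95 to 38.8) and in all 19 of the 7-month cells (82.4 to 100). At 100 TPM the counts were 4, 2 and 15 cells. The highest young cells were just under the median of 7 months.

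Cells with much Gjb6 were set off by a gap. Of the 116 labelled cells, 22 reached 100 TPM, the lowest of them at 412 TPM, and the highest cell under that level had 33.7 TPM. The level was chosen after the data were seen and lies within this gap. By title set, the qNSC over 100 TPM were 2 of 4, 1 of 5 and 1 of 7 in the 5-week sets and 5 of 6, 4 of 6 and 6 of 7 in the 7-month sets. Both 7-week cells came from set A2_3 (2 of 8 qNSC), with none in A2_1 (8 qNSC) or A2_2 (7 qNSC).

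Set means of Gjb6 in qNSC on the log2(TPM + 1) scale were 2.85 ± 1.79 at 5 weeks, 1.19 ± 1.43 at 7 weeks and 9.16 ± 1.06 at 7 months (SD, n = 3 sets each). The 7-month sets lay above all younger sets, by 6.31 over 5 weeks and 7.97 over 7 weeks, and the younger ages overlapped. In these comparisons 11% and 19.7% of all genes were higher in every 7-month set. Without the qNSC with few astroglial markers the differences were 6.94 and 8.95. On the log2 of the mean TPM, which weights cells by their level, the difference from 5 weeks was 2.45. The astroglial marker list was also highest at 7 months in these cells, with median means of 6.62, 6.66 and 8.11 at 5 weeks, 7 weeks and 7 months. The number of genes found was also highest at 7 months. Their part in the Gjb6 result was not tested. Outside this comparison, the filtered-out libraries, all labelled 5-week, had a median Gjb6 of 179 TPM with A1 titles and 19.5 TPM with A3 titles. The A1-titled ones were mostly from set A1_1. The A3-titled ones were all from A3_1, whose bulk pools were the lowest in Gjb6 at 5 weeks, so this is not a comparison of whole series.

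In aNSC, Gjb6 reached 1 TPM in 1 of 32 cells at 5 weeks (highest 2.72 TPM) and in 0 of 16 at 7 weeks, which allows a share of up to 18.75% by the limit of 3 cells and 20.6% by the exact interval. At 7 months it did so in 7 of 10 aNSC (70%, 34.8 to 93.3), with a median of 3.19 TPM, and 1 of these cells was over 100 TPM. The set means at 7 months were 0.94, 2.26 and 4.16 on the log2(TPM + 1) scale, from 2, 4 and 4 cells. The lower 2 are near the floor, with cells at 0.29 to 1.86 TPM and 1.17 to 6.96 TPM. At 10 TPM, 2 of the 10 cells remained. All 3 set means lay above the younger sets, which ranged from 0.02 to 0.35. In these comparisons 5.13% and 5.15% of all genes were higher in every 7-month set. Without the 2 cells rich in oligodendrocyte markers, both from the set at 4.16, Gjb6 was at 1 TPM in 6 of 8 cells and that set was at 5.31. The set then held 2 cells, at 0.29 and 1212 TPM.

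Cells with under 100 TPM of Gja1 had higher medians of both genes at 7 months than at the younger ages. Leaving out the 2 cells rich in oligodendrocyte markers, the 8 such cells of 7 months had a median of 4.55 TPM of Gjb6 (0.29 to 25.6) and 11.5 TPM of Gja1 (0.23 to 30.4). The 51 such cells of 5 and 7 weeks had a median of 0 TPM of Gjb6 (0 to 0.59) and 0.71 TPM of Gja1 (0 to 90). The ranges overlap in both genes. By set at 7 months, Gjb6 was at 1.04 to 1.86 TPM in A1_1 and 4.51 to 6.96 TPM in A1_2. It was at 0.29 to 33.7 TPM in A1_3, where the highest of the 4 cells was one of those rich in oligodendrocyte markers. The 7-month qNSC with few astroglial markers, 3 cells, had 1.04, 6.71 and 25.6 TPM. No 7-month library lacked Gjb6 entirely, since the lowest values per set were 0.29, 1.17 and 0.29 TPM. The mean of Gjb6 over all labelled cells was 767, 864 and 1744 TPM in the 7-month sets and at most 164 TPM in the others. Its part in the low values was not tested, and the share at 100 TPM does not use them.

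**Figure D2:**
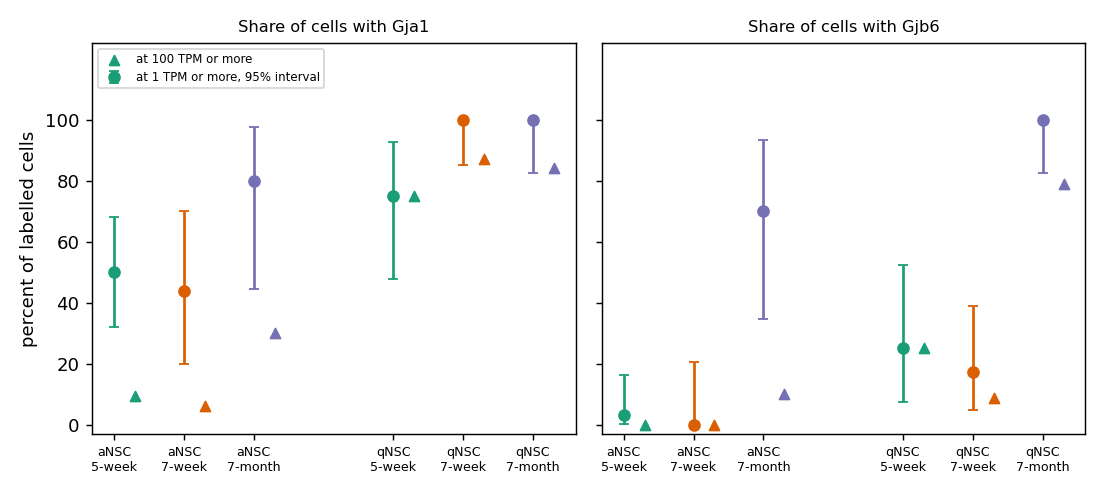
Share of labelled cells with Gja1 (left) and Gjb6 (right), in percent, by stage and age. Circles with bars give the share at 1 TPM or more with its exact binomial 95% interval, and triangles the share at 100 TPM or more. Gjb6 at 100 TPM is seen in 78.9% of 7-month qNSC, 25% of 5-week qNSC and 8.70% of 7-week qNSC.

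Over all ages, Gjb6 reached 1 TPM in 27 of 58 qNSC (46.6%) and 8 of 58 aNSC (13.8%). The fitted stage difference was 3.31 (SE 0.94, moderated by limma over all genes). It varied with age, with an SD of 2.79 between the differences at single ages, and without 7 months it was 1.73. In 8 of 9 title sets qNSC were higher. The exception, at -0.05, was the 7-week set A2_1, where no cell of either stage reached 1 TPM, and the highest set difference was 7.62.

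At a shared level, Gjb6 was found only in cells that also had Gja1. No labelled cell had Gjb6 without Gja1, whether the level was set at 1, 10 or 100 TPM. Gja1 was the more abundant gene in most cells, which by itself makes Gjb6 without Gja1 rare at a shared level. Under 1 TPM, Gjb6 was above Gja1 in 7-month aNSC of set A1_3 (0.90 against 0.78 TPM and 0.29 against 0.23 TPM). At 1 TPM, 35 of 116 cells had both, 50 had Gja1 alone and 31 had neither. Counting only qNSC with at least 100 TPM of Gja1, Gjb6 was also at 100 TPM in 4 of 12 from 5-week mice (33.3%), 2 of 20 from 7-week mice (10%) and 15 of 16 from 7-month mice (93.75%). The single 7-month exception had 4097 TPM of Gja1 and 26.1 TPM of Gjb6. The 48 qNSC with at least 100 TPM of Gja1 are those left without the cells of few astroglial markers. These counts pool cells of several title sets. The part of Gja1 or astroglial content in the Gjb6 difference between ages was not tested.

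In the 22 cells with both at 100 TPM, Gja1 was 0.59 to 6.68 times the level of Gjb6, with a median of 2.23, and Gjb6 was the higher in 3 cells. One of these 3 was a 7-week qNSC with the lowest ratio. Across the 19 qNSC of 7 months the levels of Gja1 and Gjb6 correlated with Pearson's r of 0.88 and Spearman's rho of 0.61. Without the 3 cells with few astroglial markers r was 0.27 and rho 0.34 (n = 16 cells), so the coefficient rests on those cells. With cells of few astroglial markers kept, as for the 0.88, r was 0.37 over the 16 qNSC of 5 weeks and 0.07 over the 23 of 7 weeks. Cells of a set share preparation, and depth per cell is unknown, so these coefficients are descriptions.

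**Figure D3:**
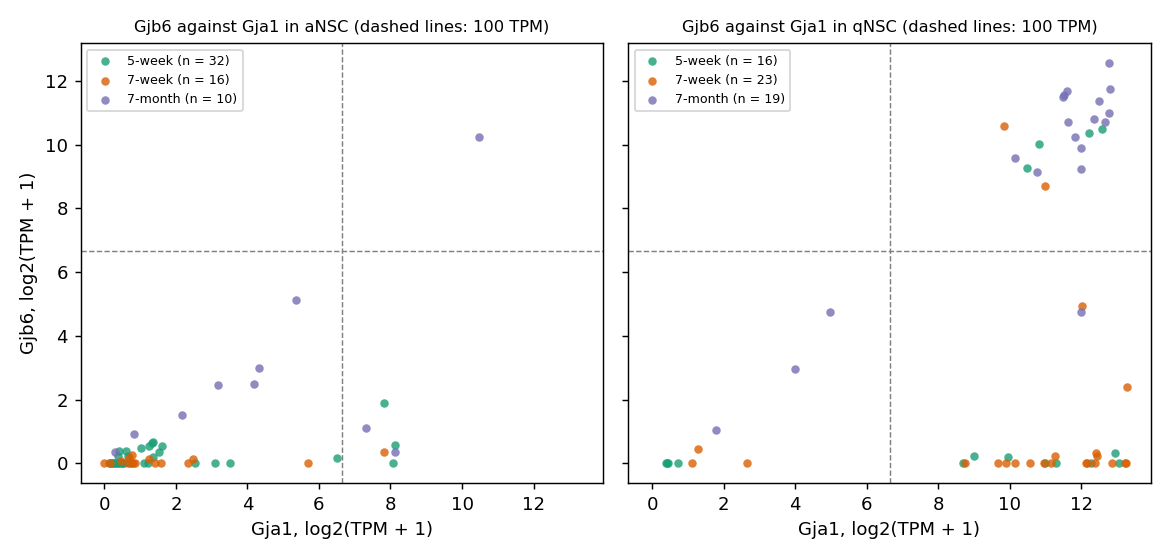
Gjb6 against Gja1 in each labelled cell, both as log2(TPM + 1), for aNSC (left) and qNSC (right), coloured by age. Dashed lines mark 100 TPM. The upper left field is empty in both panels, and 15 of the 21 qNSC in the upper right are from 7 months.

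Gjb2, which encodes Cx26, was close to absent from single cells. It reached 1 TPM in 1 of 116 labelled cells and in 0 of 58 aNSC, which allows a share of up to 5.17% by the limit of 3 cells and 6.16% by the exact interval. The cell was a 7-month qNSC of set A1_1 with 416 TPM of Gjb2, 4057 TPM of Gja1 and 607 TPM of Gjb6. It had 21 of 24 astroglial markers at 1 TPM or more, none of 10 leptomeningeal fibroblast markers and none of 8 choroid plexus markers. Among all other labelled cells the highest value of Gjb2 was under 1 TPM.

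In bulk, where each library stands for 500 cells, all 3 connexins were seen, and fewer cells of a type cannot be told apart from less RNA per cell. Gja1 in the pools of sets A3_1, A3_2 and A3_3 (5 weeks) averaged 790, 900 and 1380 TPM. It was at 479 and 1074 TPM in the single pools of the 7-week sets and at 1646 and 2318 TPM in those of the 7-month sets. Both 7-month pools were above every younger pool, which held for 3.16% of all 13668 genes. The difference of 7 months from 5 weeks was 0.98 on the log2(TPM + 1) scale (SE 0.45, limma adjusted p = 0.837), and from 7 weeks it was 1.44 (SE 0.50, adjusted p = 0.317).

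Gjb6 averaged 28.3, 141 and 255 TPM in the 5-week sets. It was at 102 and 307 TPM in the 7-week pools and at 316 and 565 TPM in the 7-month pools. The 7-month pools were again the highest (3.16% of all genes), although the lower of them was only just above the higher 7-week pool. The difference from 5 weeks was 2.06 (SE 0.92, limma adjusted p = 0.822) and from 7 weeks 1.25 (SE 1.01, adjusted p = 0.672). In qNSC the single-cell difference over 5 weeks was 6.31 as a mean of logs and 2.45 on the log2 of the mean TPM, which is the measure closer to a pool, and neither was tested against that of bulk. Set A3_1 stood low among the 5-week pools, and without it the bulk difference was 1.16. Gjb6 amounted to 3.04 to 4.06% of Gja1 in the 3 pools of A3_1 and to 14.1 to 28.6% in the other 10 pools.

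Gjb2 was found at 1 TPM in 11 of 13 pools, with set means of 1.08, 4.43 and 6.77 TPM at 5 weeks, 5.76 and 15.9 TPM at 7 weeks, and 7.33 and 44.6 TPM at 7 months. The 7-month pools were far apart, and the lower one was below a 7-week pool. The difference of 7 months from 5 weeks was 2.29 (SE 0.89, limma adjusted p = 0.756), and without set A1_2 it was 1.06. The choroid plexus marker mean was 0.40 to 0.67 in the 5-week sets and 1.00 to 1.34 in the others, and the leptomeningeal mean was 0.55 to 1.11 over all 7 sets. Ttr, the abundant transthyretin of choroid plexus, was the 1 list member called, higher by 4.95 at 7 months and 6.13 at 7 weeks than at 5 weeks (limma adjusted p = 0.00552 and 0.00486). The part of such cells in Gjb2 was not tested.

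None of the 9 bulk tests of the members passed after adjustment over 13668 genes, and 2 had an unadjusted p under 0.05. These were Gjb2 for 7 months against 5 weeks (p = 0.0357) and Gja1 for 7 months against 7 weeks (p = 0.0213), both from limma. An unadjusted p under 0.05 was reached by 6.27% of all genes in the first contrast, 11.8% in the second and 9.09% for 7 weeks against 5 weeks. After adjustment, 0.0805%, 0.0732% and 0.0366% were called in either direction for 7 months against 5 weeks, 7 months against 7 weeks and 7 weeks against 5 weeks. The tests take title sets as independent, which the labels do not state, so p-values measure the spread between sets. Between 7 weeks and 5 weeks the differences were -0.46 (SE 0.45) for Gja1, 0.81 (SE 0.92) for Gjb6 and 1.42 (SE 0.89) for Gjb2, with adjusted p-values of 0.780, 0.809 and 0.660 in limma.

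No astroglial marker passed the test between bulk ages. Their mean was 7.72, 7.77 and 8.24 in the 5-week sets, 8.11 and 8.70 in the 7-week sets and 8.53 and 9.14 in the 7-month sets. The median difference of 7 months from 5 weeks was 0.95 over the 24 markers, of which 22 were positive, and 0.02 over all genes. The part of this in the bulk values of Gja1 and Gjb6 was not tested.

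**Figure D4:**
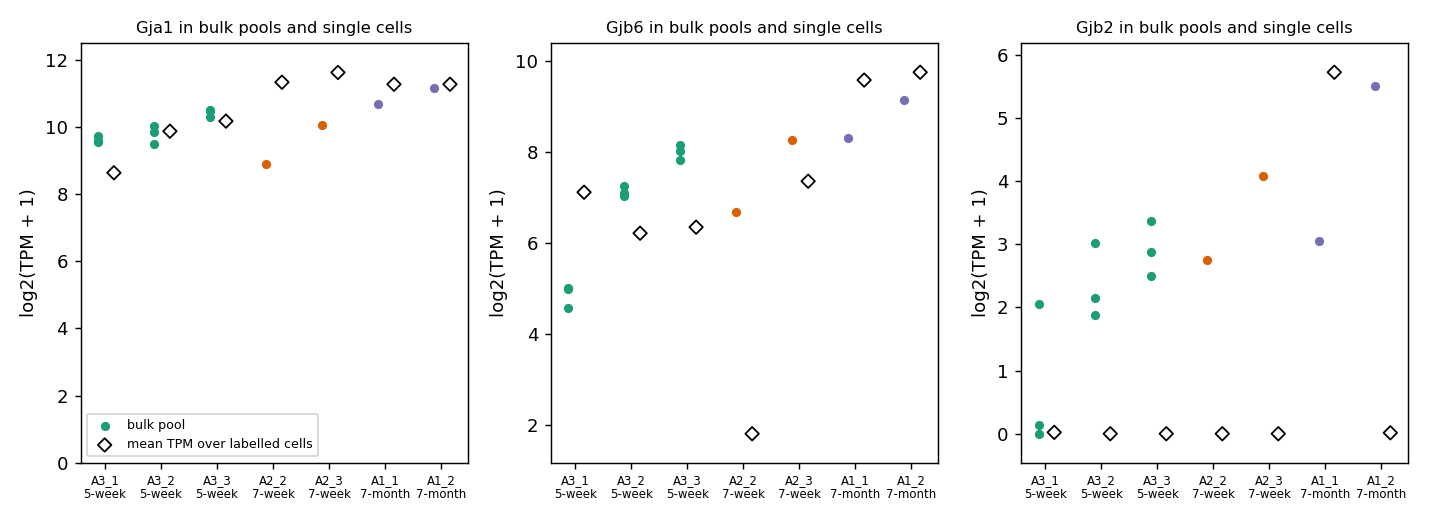
Gja1, Gjb6 and Gjb2 in bulk pools (filled circles, coloured by age) and as the mean TPM over the labelled cells of the same title set (open diamonds), as log2(TPM + 1), for the 7 sets with both. Axes differ between panels and only that of Gja1 starts at 0. Gjb6 in set A2_2 is at 102 TPM in bulk and 2.52 TPM over cells, and Gjb2 is above the cell mean in 6 of 7 sets.

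Pools and cells of the same title set could be set side by side for 7 sets. Gja1 was higher in bulk in 2 of 7 sets, Gjb6 in 4 and Gjb2 in 6. The greatest gap for Gjb6 was in the 7-week set A2_2, with 102 TPM in the pool and a mean of 2.52 TPM over 12 labelled cells. In set A3_1 the order was the other way, with 28.3 TPM in bulk and 138 TPM over 12 cells, of which 2 were over 100 TPM. In the 7-month sets A1_1 and A1_2, Gjb6 was at 316 and 565 TPM in bulk and 767 and 864 TPM over cells. The mix of stages among the labelled cells need not be that of a pool.

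The other 17 connexin genes of the list were found at low levels or in few libraries. In labelled cells 5 of them reached 1 TPM anywhere, in bulk 7, and 7 in neither, and none was abundant enough to enter the stage fit. Gjc3, which encodes an oligodendrocyte lineage connexin, was the most widespread, at 1 TPM or more in 25 aNSC and 17 qNSC and in all 13 pools. Its highest value, 206 TPM, was in one of the cells rich in oligodendrocyte markers, and the same cell had 5.03 TPM of Gjb1, which encodes a connexin of mature oligodendrocytes. It was the only labelled cell with Gjb1 at 1 TPM or more. Gjc1, known for its role in vascular and heart cells, was in 12 of 13 pools (mean 16.3 TPM, highest 28.4) and in 2 aNSC. Gje1 was in 1 aNSC and 5 qNSC at up to 1.77 TPM. Gja5 was in 7 pools, Gjd2, the main connexin of electrical synapses between neurons, in 3 and Gja4 and Gjb5 in 1 each, none above 2.46 TPM. Among pannexins, which form related channels, Panx1 was in 5 aNSC, 1 qNSC and all 13 pools (mean 7.61 TPM) and Panx2 in 5 pools.

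Of 16 genes for proteins that bind or regulate connexins, 6 could be tested between the stages. If the stage labels were read from expression, these p-values and those of the next paragraph are not independent of the labels. Those for Hepacam, an adhesion protein that gathers Cx43 at astrocyte contacts, and its partner Mlc1 were higher in qNSC, by 2.21 (SE 0.49, limma adjusted p = 0.0179) and 2.40 (SE 0.47, adjusted p = 0.0118). Nedd4, a ubiquitin ligase that acts on Cx43, differed by -2.86 (SE 0.49, adjusted p = 0.00812). Dbn1, Csnk1e and Mapk3 did not pass. On the log2 of the mean TPM or without a filter on low genes, no gene passed in either direction, these included. The median over the 6 was -0.97, beside -0.71 for all genes.

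Astroglial channels and transporters, which handle the potassium, glutamate and water that gap junctions help to spread, were higher in qNSC as a group. Of 13 tested, 10 were higher and none was lower, beside 3.82% and 19.8% of all genes, and the median difference was 2.83, beside -0.71. Those higher included the sodium pump subunit Atp1b2 (5.60, SE 0.56) and the glutamate transporters Slc1a3 (5.24, SE 0.45) and Slc1a2 (4.47, SE 0.48). The water channel Aqp4 (2.87, SE 0.71) was also higher, near the group median. Adjusted p-values of these named genes ran from 0.00175 to 0.0255 in limma. Kcnj10, Slc4a4 and Slc7a11 did not pass. The count was 5 without age as a block, 5 with only genes of a mean of at least 3, 6 without the 5-week cells, 5 without the 7-week cells, and 0 on the log2 of the mean TPM or without a filter on low genes. Of the astroglial markers, a list that also holds Slc1a3, Slc1a2 and Aqp4, 19 of 21 tested were higher, beside the same 3.82%. These lists were drawn up with earlier results of these data known.

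The 5 genes whose level was most like that of Gja1 over the 116 cells included Clu (r = 0.91), Aldoc (0.87), Apoe (0.86) and Sdc4 (0.83), from 3373 genes at 1 TPM or more in at least 20% of cells, with a median r of -0.14. Within the 58 qNSC they included Cst3 (0.91), Apoe (0.91), Sdc4 (0.88) and Clu (0.87). Apoe, Sdc4 and Clu were in both lists.

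For Gjb6 the most similar over all cells were F3 (0.71), Pla2g7 (0.67), Nrcam (0.67), Gpr37l1 (0.67) and Serpine2 (0.66). Within qNSC they were Il33, which encodes an alarmin cytokine (0.75), Etnppl, an enzyme of phosphoethanolamine breakdown (0.69), Nrcam (0.67), Atp13a5 (0.65) and Pygm, a glycogen phosphorylase (0.64), among 3221 genes with a median r of 0.06. No gene was among the 5 most like both Gja1 and Gjb6. These coefficients are over cells that differ in stage and age and share libraries' title sets, and they say nothing of control.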

How the data were processed

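The authors deposited 1 table of TPM values for 144 libraries, made with RSEM 1.2.15 and mm9, per the submitters' processing notes. Read depth, annotation and filters are not given in the sources used here. Per the labels' protocols, a SMARTer Ultra Low Input kit amplified the cDNA and a NEBNext DNA kit, which marks no strand, made the libraries. Values were used as deposited. Sums per library ran from 710525 to 1000000.

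A pair of 5-week qNSC libraries with a correlation of 0.992 (next pair 0.742) was averaged, which left 116 labelled cells. Detection was set at 1 TPM, and the level of 100 TPM was added after the data were seen. A share of 0 was given the limit that 3 cells allow. Stages were fitted with limma 3.58.1 (R 4.3.3) on log2(TPM + 1) means of 6 stage and age groups with age as a block, and bulk ages on 7 title-set means, for genes with a mean of at least 1. The two-sided p-values were adjusted by Benjamini-Hochberg, with a threshold of 0.05. The fits were also run on values simulated as normal around each gene's mean, which lack the on-off pattern of single cells. That run does not show how the fits behave on such data. Alternatives were another pseudocount, filter, normalization, block or detection level, the log2 of the mean TPM, and leaving out title sets, ages or cells. Same-aged stages share title sets, where the labels name no animal, so age was used as the block by design.

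Single-cell ages were described over 3 title sets per age, beside the share of all genes whose sets did not overlap. The members, lists and motifs were chosen with earlier results of these data known. Named genes were the members, connexins and pannexins at 1 TPM in any library, list members past the threshold (at most 6 per list by size) and the 5 genes most correlated with a member, leaving out predicted models. A few genes that met this rule are not reported here. Ttr and the genes that did not pass were named after their values were seen. Promoters and neighbours came from RefSeq on GRCm38.p6, which held all 3 members. No mm9 coordinates are given. Of the list symbols, 3 matched no row. Lists not described in the report gave no stage calls among oligodendrocyte and mature neuron markers (2 tested each), 1 higher of 1 ependymal marker, and 5 lower of 12 neuroblast and 7 lower of 10 cell cycle markers. The oligodendrocyte precursor, microglia, endothelial and mural, leptomeningeal, choroid plexus and erythroid lists had no member abundant enough to test between stages.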

Additional observations from a re-analysis of the deposited data

Results flagged for a closer look

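Gja1 and Gjb6 each had 1 cell far above the rest of the 10 aNSC of 7 months, and it was the same cell, from set A1_3. It had 1420.32 TPM of Gja1 and 1211.89 TPM of Gjb6. In both genes the gap to the next cell, as a share of the whole range, passed the 95% limit of Dixon's test. Across 5 pairs of gene and group with 4 to 10 libraries, these were the 2 picked out. Chance picks out about 1 in 20, but both come from 1 cell, cells are not replicates, raw TPM is skewed, and the members were chosen on such values, so this is a description. The cell's astroglial marker mean was 5.68, the highest of the 7-month aNSC. It is the only aNSC with both genes at 100 TPM.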

How the results depend on the processing

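Values that moved did so as follows. On the log2 of the mean TPM, the differences in qNSC became 0.744 (Gja1, 7 months minus 5 weeks), 2.45 (Gjb6, the same ages) and -4.69 (Gjb6, 7 weeks minus 5 weeks). A pseudocount of 0.1 gave 8.39 and 10.42 for Gjb6 at 7 months over 5 and 7 weeks. Chosen after seeing the data, leaving out the qNSC with few astroglial markers gave 0.738 for Gja1 at 7 months over 5 weeks, 8.80 for its stage difference and 100% for its detection at 5 weeks, as did detection above 0. In aNSC, Gja1 was found in 98.3% of cells above 0, 22.4% at 10 TPM and 12.1% at 100 TPM, and Gjb6 in 51.7%, 3.45% and 1.72%. Both were found together in 3.45% at 10 TPM and 1.72% at 100 TPM. In 7-month qNSC, Gjb6, alone and with Gja1, was at 100 TPM in 78.9%. Against the median cell in place of the mean cell, the log2 ratio of bulk to cells was 3.88 for Gja1, a reversal from -0.50, and 5.53 for Gjb6. Bulk contrasts that changed sign when 1 title set was left out ranged from -1.04 to 0.12 (Gja1, 7 weeks minus 5 weeks), -0.094 to 1.60 (Gjb6, the same ages) and -0.36 to 2.09 (Gjb2, 7 months minus 7 weeks), without A2_2, A3_1 and A1_2 respectively.

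Without the replicate block for age the stage differences were 7.04 (Gja1) and 3.31 (Gjb6), and with title set as the replicate block 7.08 and 3.48. Over 14 alternatives per bulk contrast no adjusted p of a member fell under 0.233. Leaving out 1 age gave stage differences of 6.34 to 7.58 for Gja1 and 1.73 to 4.40 for Gjb6. Leaving out 1 title set kept Gjb6 in 7-month qNSC 5.66 to 7.33 above 5 weeks and 7.35 to 8.76 above 7 weeks. The count of genes higher in qNSC (161) was 463 with quantile normalization, 93 with a filter at a mean of 3, 86 without 5 weeks, 93 without 7 weeks, and 0 on the log2 of the mean TPM or with no filter. That of genes lower (833) was 423, 294, 0 and 0 in the last 4 of these. TPM keeps no counts, so what depth allows in a cell without Gjb6 or Gjb2 is unknown.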

Other observations

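The 14 libraries labelled as filtered out entered no comparison. All had Gja1, from 127.5 to 7202 TPM, and all had Gjb6 at 1 TPM or more. They are labelled 5-week, but 7 carry titles of series A1, otherwise used for 7 months, and 7 of series A3. The A1-titled libraries were mostly from set A1_1 and the A3-titled ones all from A3_1. A median of 4997 genes reached 1 TPM in the A1-titled libraries and 10668 in the A3-titled ones. Gjb6 was at 137 to 2161 TPM (median 179) in the A1-titled libraries and at 3.42 to 40.4 TPM (median 19.5) in the A3-titled ones. Gja1 ran from 260 to 7202 TPM and from 127.5 to 2196 TPM in the same libraries. Gjb2 was at 0.91 TPM or less in all 14.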
